A study of Mus musculus with 6 samples.

Results

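Genes of the synaptonemal complex and of meiotic cohesin were examined in mouse embryonic stem (ES) cells without Dppa2, also known as ECAT15-2, which encodes a nuclear SAP-domain factor of early embryos and germ cells. The set was fixed by name as 10 genes, Syce1, Syce2, Sycp1, Sycp2, Sycp3, Smc1b, Stag3, Rec8, Mei1 and Tex11, among 18539 gene symbols matched on the array. It was chosen with earlier results of these data known, so counts of its genes are not independent of the data. Probes were matched through their RefSeq accessions, which gave 12 probes for 9 of the 10 genes. No probe was matched to Sycp3, which is not analysed here. Of the 9 matched genes, 7 exceeded background clearly on 2 or more of the 6 arrays and were tested, and Sycp2 and Tex11 were not.

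RNA was measured on 6 one-colour Agilent whole mouse genome arrays, 2 in each of 3 groups. The Flag-Dppa2 group was the Dppa2-deficient lines (15-2-/-, with 15-1CT/CT, a conditional targeted allele on both copies of ECAT15-1, the gene now called Dppa4) that carried the piggyBac-CAG-Flag15-2-IP vector, in which the broadly active CAG promoter drives Flag-tagged Dppa2. The mock group was the same Dppa2-deficient lines with the piggyBac-CAG-IP vector. The wild-type group was lines of the genotype 15-1+/+, 15-2+/+ with no transduction. All lines came from blastocysts of intercrosses on a mixed 129Sv and C57BL6 background and grew on gelatin in medium with serum and LIF. Replicate 1 of each group came from 1 mother and replicate 2 from another, and a knockout line supplied both its mock and its Flag-Dppa2 array, so each knockout group rests on 2 lines. In comparisons with wild type, the loss of Dppa2 cannot be told apart from the vector or the Dppa4 allele.

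During meiosis, homologous chromosomes are held side by side by the synaptonemal complex, a protein zipper that forms only in germ cells. Its lateral elements contain SYCP2 and SYCP3, its transverse filaments are made of SYCP1, and its central element includes SYCE1 and SYCE2. The chromosome axes beneath it are built on cohesin rings in which SMC1B, REC8 and STAG3 take the place of their somatic relatives. MEI1 is needed for the double-strand breaks that start meiotic recombination, and TEX11, encoded on the X chromosome, takes part in synapsis and crossover formation. Promoters of many such germline genes are rich in CpG dinucleotides and are methylated in somatic cells, and several of the genes are transcribed at low levels in cultured ES cells.

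The 250 bases before the listed transcription start of the 4 genes that were lower in mock knockout cells (Syce1, Smc1b, Sycp1 and Mei1) and of Stag3 and Rec8, cohesin subunits that were not called, are printed to show how far their promoters differ in CpG content. The sequences are those of RefSeq on GRCm38.p6, read 5′ to 3′ on the strand of the gene, with each CpG in capitals. For Mei1 and Stag3 the listed start lies inside the annotated gene.
Syce1, chr7:140787855-140788104, minus strand: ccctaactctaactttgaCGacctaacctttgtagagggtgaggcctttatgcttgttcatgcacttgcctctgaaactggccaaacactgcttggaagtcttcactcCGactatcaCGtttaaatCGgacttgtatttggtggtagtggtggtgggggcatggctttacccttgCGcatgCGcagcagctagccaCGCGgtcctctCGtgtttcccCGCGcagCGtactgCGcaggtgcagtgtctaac
Smc1b, chr15:85131958-85132207, minus strand: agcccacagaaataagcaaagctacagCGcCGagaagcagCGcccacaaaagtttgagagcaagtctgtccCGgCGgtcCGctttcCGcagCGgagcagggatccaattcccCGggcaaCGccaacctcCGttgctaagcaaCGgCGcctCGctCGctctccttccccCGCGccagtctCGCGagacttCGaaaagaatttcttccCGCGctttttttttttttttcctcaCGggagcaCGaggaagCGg
Sycp1, chr3:102936101-102936350, minus strand: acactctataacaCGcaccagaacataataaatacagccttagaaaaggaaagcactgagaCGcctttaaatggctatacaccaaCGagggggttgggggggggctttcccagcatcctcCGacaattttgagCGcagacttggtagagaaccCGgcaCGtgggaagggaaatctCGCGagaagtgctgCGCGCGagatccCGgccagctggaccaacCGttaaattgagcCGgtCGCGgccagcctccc
Mei1, chr15:82082226-82082475, plus strand: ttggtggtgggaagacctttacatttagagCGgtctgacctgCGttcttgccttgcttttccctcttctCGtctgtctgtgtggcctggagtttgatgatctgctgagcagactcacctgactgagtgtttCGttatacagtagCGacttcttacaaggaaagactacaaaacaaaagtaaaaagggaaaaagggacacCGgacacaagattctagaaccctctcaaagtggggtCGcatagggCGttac
Stag3, chr5:138280259-138280508, plus strand: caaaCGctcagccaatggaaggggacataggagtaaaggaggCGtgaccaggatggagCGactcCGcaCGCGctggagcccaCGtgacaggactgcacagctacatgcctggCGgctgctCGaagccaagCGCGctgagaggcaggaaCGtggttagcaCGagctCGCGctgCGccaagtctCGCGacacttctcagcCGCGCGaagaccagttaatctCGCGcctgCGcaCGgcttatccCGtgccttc
Rec8, chr14:55617916-55618165, plus strand: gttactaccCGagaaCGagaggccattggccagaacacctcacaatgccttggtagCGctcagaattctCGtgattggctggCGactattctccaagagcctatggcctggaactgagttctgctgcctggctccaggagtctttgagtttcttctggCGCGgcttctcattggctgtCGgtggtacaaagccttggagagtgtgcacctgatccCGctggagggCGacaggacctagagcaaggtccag

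Over all 32851 windows of this length in the reference table the median was 6 CpGs, at an observed over expected ratio of 0.37. The window of Smc1b held 25 CpGs at a ratio of 1.21, and that of Stag3 held 26 at a ratio of 1.05. Sycp1 had 17 CpGs (ratio 0.89), Syce1 had 13 (0.74), Rec8 had 10 (0.51) and Mei1 had 8 (0.58). For Syce2 the table lists 2 starts, with 11 CpGs in one window and 24 in the other, and the windows of the genes that could not be tested held 7 CpGs in Sycp2 and 12 in Sycp3. In all 9 of the 10 genes were matched in the table, and Tex11 was not.

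Both strands of these windows were searched for CACGTG, the E-box letters bound by MYC and MAX family factors, and for GGCGGGAA, letters of an E2F site. Neither motif overlaps the other. CACGTG was in 6.02% of all windows and was found in those of Stag3, Sycp1, Sycp3 and the second start of Syce2. In the printed sequences it begins 94 bases before the start in Sycp1 and 170 bases before it in Stag3. GGCGGGAA was in 1.86% of all windows and, among the members, in the second window of Syce2. The windows of Syce1, Smc1b, Mei1 and Rec8 held neither run of letters.

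Signals are given as a percentage of the 75th percentile signal of the same array, a scale on which arrays, but not different genes, can be compared. That percentile was 712 to 857 intensity units, 55.8% to 60.3% of the probes of an array were well above background, and no spot was saturated. The number of arrays limits the precision. The wild-type arrays differed beyond the scanner's own error at 0.442% of 14943 bright spots, against 25.01% for the Flag-Dppa2 arrays and 22.5% for the mock arrays. The wild-type pair thus differed by less than the limit set by the scanner's own error at nearly all of these spots. The wild-type arrays may be 1 sample, although their replicates are described above as from different mothers, and these values cannot settle which holds. Both of their values are therefore given without an SD. The members' tests with the mean of the pair as 1 sample are given in the first 2 comparisons. In that fit 0 of 18763 features were called in each of the 3 comparisons, so no call below held in it, those of Dppa2 and of the gene lists included. The labels name separate knockout lines, and p-values measure the spread between these arrays. The 3 groups share 1 estimate of that spread, so p-values in Flag-Dppa2 against mock also draw on the wild-type pair.

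Both Flag-Dppa2 arrays lay on a slide of their own, so slide and Flag-Dppa2 cannot be told apart, whereas the mock and wild-type arrays shared a slide. The Y-linked transcripts Eif2s3y and Ddx3y exceeded background on each wild-type array and on none of the 4 knockout arrays, so the sex of the lines cannot be told apart from genotype where wild type is involved. Dppa2, the targeted gene, had 96.1% and 129% of the 75th percentile signal in Flag-Dppa2 cells, 23.3% and 25.2% in mock cells, and 437% and 421% in wild-type cells. Dppa2 was 17.7-fold lower in mock than in wild-type cells (limma adjusted p = 0.00589) and 4.59-fold higher in Flag-Dppa2 than in mock cells (limma adjusted p = 0.0289), still 3.85-fold below wild type (limma adjusted p = 0.0432). With the replicate number as a block the limma adjusted p was 0.0679 in Flag-Dppa2 against mock and 0.0931 in Flag-Dppa2 against wild type. Dppa4, whose alleles are conditional in the knockout lines, was well above background on all 6 arrays. It had 1212% and 1386% of the 75th percentile in Flag-Dppa2 cells, 1101% and 1287% in mock cells, and 778% and 794% in wild-type cells. It was 1.51-fold higher in mock than in wild-type cells (limma adjusted p = 0.0763). In Flag-Dppa2 cells it was 1.65-fold above wild type (limma adjusted p = 0.0943), so neither difference was called.

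All 10 matched ES cell markers were well above background on every array. Their summed signal was 61654.5% and 70154% of the 75th percentile on Flag-Dppa2 arrays and 63833% and 71738% on mock arrays. It was 51723% and 50545% on wild-type arrays. Of these markers 1, Utf1, was called higher in mock than in wild-type cells, where 2.44% of all features were higher. Its limma adjusted p was 0.0370, and 0.0682 with the replicate block. Of 10 matched germ cell markers 8 were above background on each Flag-Dppa2 array, 6 and 7 on the mock arrays and 9 on each wild-type array, and their summed signal was 1534% and 2691% of the 75th percentile on Flag-Dppa2 arrays, 1324% and 1397% on mock arrays, and 3272% and 3157% on wild-type arrays. Ddx4, Dazl and Nanos2 were not above background on either mock array. Dazl was also not above it on either Flag-Dppa2 array, and Nanos2 was above it on none of the 6 arrays. Of 18 fibroblast and feeder markers 10 to 13 were above background on Flag-Dppa2 arrays (summed signal 383% to 489%), 8 to 11 on mock arrays (312% to 369%) and 13 to 14 on wild-type arrays (797% to 834%). Col6a1, Lum and Prrx1 were above background on none of the 6 arrays. Of 6 markers of the rare two-cell-like state none was above background on any Flag-Dppa2 or mock array and 5 were on each wild-type array. These lists moved with the comparison to wild type, and their part in the results was not tested. A change in the share of expressing cells and a change in RNA per cell cannot be told apart in such bulk RNA.

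The first comparison asked which of these genes depend on the presence of intact Dppa2 in ES cells. In mock knockout cells Syce1, Smc1b, Mei1 and Sycp1 fell relative to wild-type cells, whereas Syce2, Stag3 and Rec8 were not called. Thus 4 of the 7 tested genes were lower and 0 were higher, where 3.65% of all 18763 features tested were lower and 2.44% higher in limma's test at an adjusted p under 0.05. With Syce1, Mei1 and Sycp1 at their bounds against the detection floor, the median log2 difference of the 7 genes was -1.18, the bound of Sycp1 itself, against 0.05 over all features as fitted. Sycp1 entered the test only through its wild-type arrays, and Syce1 and Mei1 through wild-type and Flag-Dppa2 arrays, so the count is a description. The groups did not overlap for 5 of the 7 genes, which was so for 65.7% of all features.

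**Figure D1:**
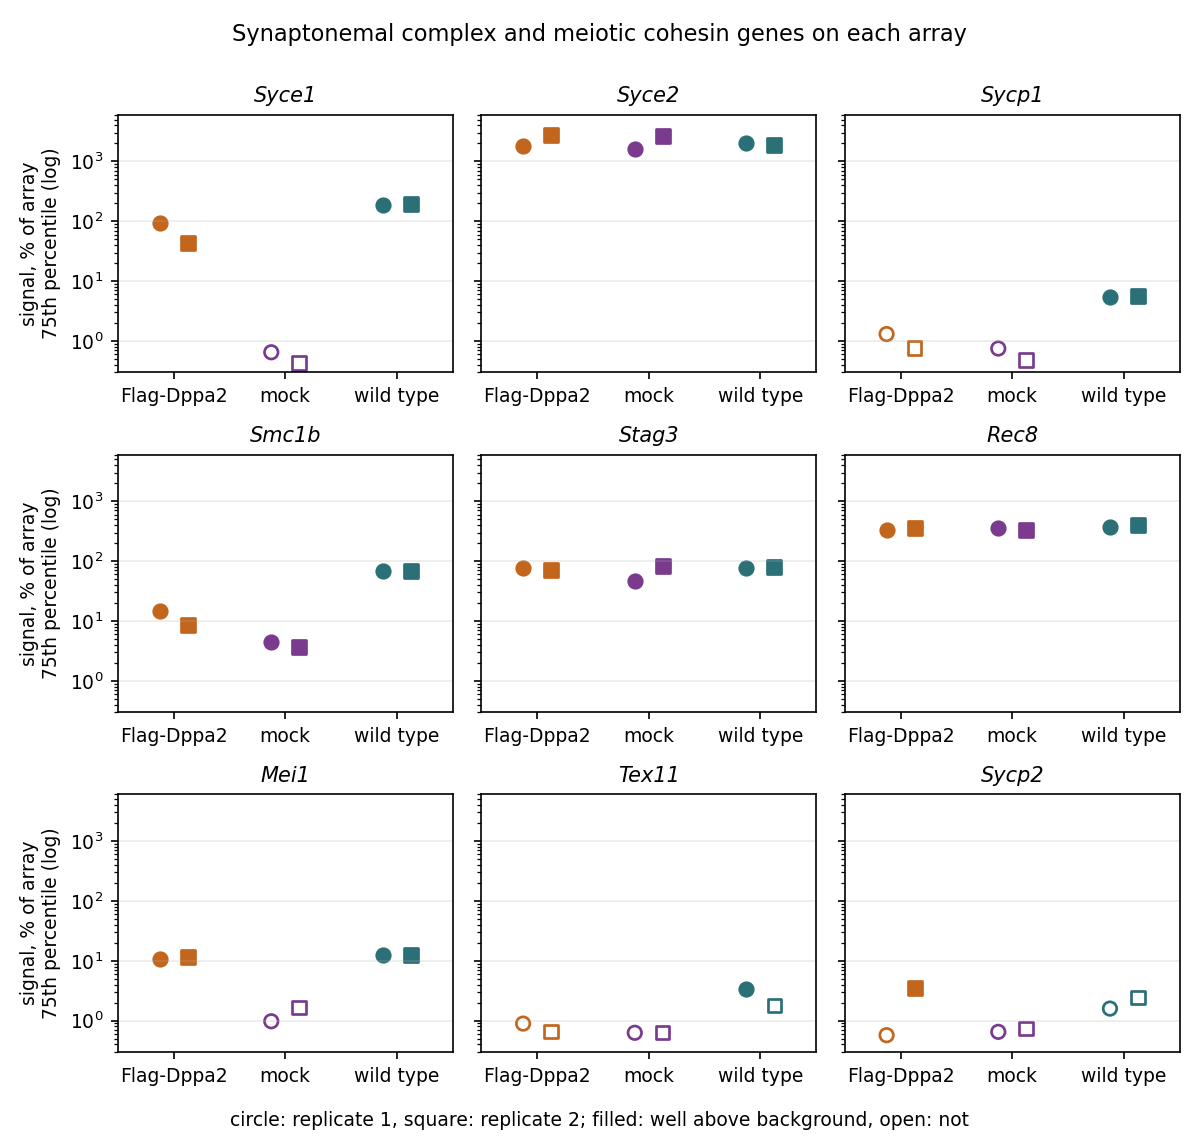
Signal of 9 genes on each array, as a percentage of the array's 75th percentile signal on a log axis, for Flag-Dppa2 knockout, mock knockout and wild-type ES cells (circles, replicate 1; squares, replicate 2; open symbols, not well above background). Syce1 lies at 95.3% and 43.9% in Flag-Dppa2 cells, at 0.648% and 0.428% in mock cells and at 188% and 191% in wild-type cells, while Rec8 lies between 332% and 401% on all 6 arrays. Sycp2 is shown by 1 of its 3 probes, the one above background on 1 array.

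Syce1 encodes a coiled-coil protein of the central element. Its signal was 0.648% and 0.428% of the 75th percentile in mock cells and 188% and 191% in wild-type cells. Both mock values were not well above background and lay far below both wild-type values. The log2 difference was -8.49 (SE 0.44), which against the detection floor of the mock arrays makes Syce1 at least 77.4-fold lower in mock cells (limma adjusted p = 0.00762).

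Syce2, which pairs with TEX12 in the central element, showed another pattern. It had 1624% and 2702% in mock cells and 2062% and 1848% in wild-type cells, so the groups overlapped. Its log2 difference was 0.10 (limma adjusted p = 0.873), with a 95% interval of the mock over wild-type ratio from 0.566 to 2.04. Within the mock group line 2 was 1.66-fold above line 1, whereas the wild-type arrays differed by 1.12-fold.

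Sycp1 encodes the transverse filament. It was dim in all groups, with 0.748% and 0.478% in mock cells, where it was not well above background, and 5.37% and 5.75% in wild-type cells. The log2 difference was -3.22 (SE 0.35), at least 2.27-fold lower in mock cells (limma adjusted p = 0.0232). This call was lost without mock replicate 1 (adjusted p = 0.0583) or without mock replicate 2 (adjusted p = 0.0738). The scanner's own error of Sycp1 on the wild-type arrays was 17.7% and 18.8% of its signal, against about 10% for Syce1 there.

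The meiotic cohesin subunits did not move together. Smc1b, the meiotic counterpart of the somatic ring subunit Smc1a, had 4.44% and 3.71% in mock cells and 69.2% and 68.1% in wild-type cells. It was above background on all 6 arrays, so its fold is measured on both sides, and the groups were far apart. Smc1b was 16.9-fold lower in mock cells, a log2 difference of -4.08 (SE 0.28, limma adjusted p = 0.0101).

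Stag3, the meiotic STAG subunit, had 46.3% and 82.4% in mock cells and 77.3% and 79.9% in wild-type cells. Only the first mock line lay below wild type, and the groups overlapped. The log2 difference was -0.35 (SE 0.29, limma adjusted p = 0.506), and the 95% interval of the mock over wild-type ratio ran from 0.455 to 1.36.

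Rec8, the meiotic kleisin that closes the ring, was read by 2 probes. Its brighter probe gave 350% and 332% in mock cells and 378% and 401% in wild-type cells, and the other gave 55.5% and 54.3% in mock cells and 59.1% and 62.0% in wild-type cells. With both probes the mock values lay just below the wild-type values. The log2 difference of the brighter probe was -0.19 (SE 0.10, limma adjusted p = 0.299), with a 95% interval of the ratio from 0.730 to 1.05, and that of the other probe was -0.14. With each array centred on its median the difference was 0.0365, so its direction depends on the scaling. By comparison, mock Smc1b averaged 5.91% of its wild-type signal and mock Rec8 87.7%.

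Mei1, which acts in double-strand break formation, had 0.977% and 1.67% in mock cells and 12.7% and 12.4% in wild-type cells. Neither mock value was well above background. The log2 difference was -3.29 (SE 0.28), at least 5.10-fold lower in mock cells (limma adjusted p = 0.0149).

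Of the 2 matched genes that could not be tested, Tex11 had 0.627% and 0.629% in mock cells and 3.38% and 1.79% in wild-type cells, and was well above background on 1 wild-type array. The 3 probes of Sycp2, a lateral element protein, were not well above background on any mock or wild-type array.

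With mock and wild-type arrays alone, which share a slide, the same 4 genes were called, at limma adjusted p of 0.0154 for Syce1, 0.0154 for Smc1b, 0.0390 for Mei1 and 0.0334 for Sycp1. When the wild-type pair counted as 1 sample, by its mean, none of the 7 genes was called, and the limma adjusted p-values were 0.126 for Syce1, 0.146 for Smc1b, 0.176 for Mei1 and 0.216 for Sycp1. In that fit 0 of 18763 features were called, 2262 had an unadjusted p under 0.05, and the smallest adjusted p of any feature was 0.124.

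**Figure D2:**
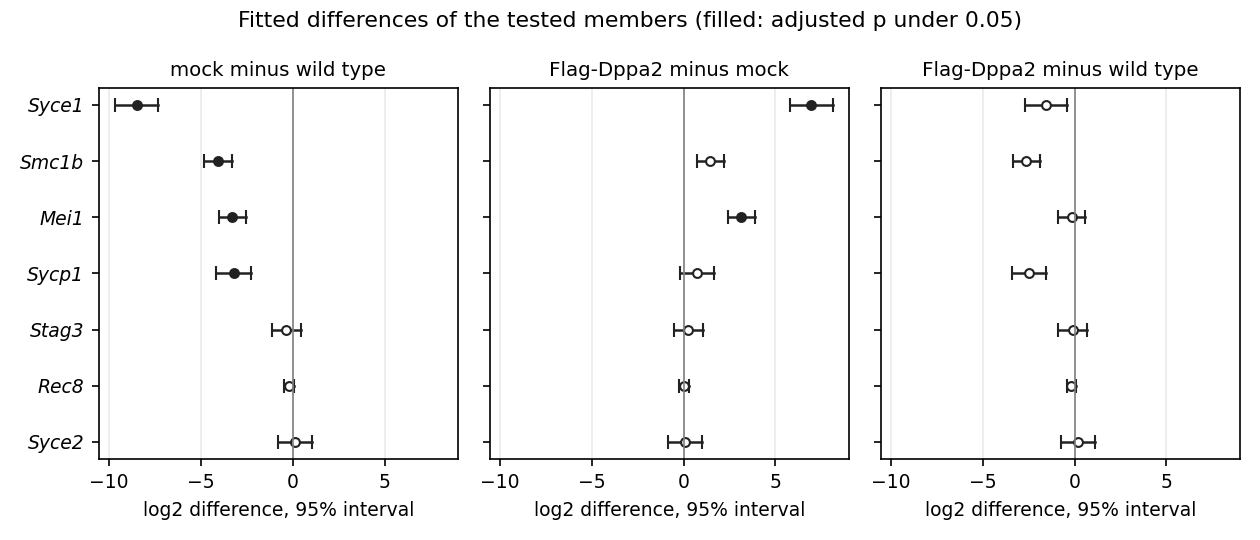
Fitted log2 differences of the 7 tested genes with 95% intervals, for mock minus wild type, Flag-Dppa2 minus mock and Flag-Dppa2 minus wild type (filled points, limma adjusted p under 0.05). Syce1, Smc1b, Mei1 and Sycp1 lie at -8.49, -4.08, -3.29 and -3.22 in mock minus wild type, and Syce1 and Mei1 at 6.94 and 3.13 in Flag-Dppa2 minus mock. Syce1, Mei1 and Sycp1 were not well above background in mock cells, so their fitted values and intervals rest there on signals below background.

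The second comparison asked which of these genes are regained when Flag-Dppa2 is supplied to the knockout lines. Syce1 and Mei1 rose in Flag-Dppa2 cells relative to mock cells. Smc1b was higher on both lines without passing the test, and Sycp1 stayed below background. This made 2 of 7 genes higher and 0 lower, where 0.682% of all features were higher and 0.0373% lower. Syce1 and Mei1 entered the test only through wild-type and Flag-Dppa2 arrays, so this count too is a description. With Syce1 and Mei1 at their bounds and Sycp1, which was below background in both groups, at 0, the median log2 difference was 0.25, against -0.01 over all features as fitted. The mock arrays serve here as they did in the comparison with wild type, so the directions in these 2 comparisons are not independent.

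Syce1 had 95.3% and 43.9% in Flag-Dppa2 cells and 0.648% and 0.428% in mock cells. Both lines regained signal well above background. The log2 difference was 6.94 (SE 0.44), at least 26.4-fold higher in Flag-Dppa2 cells (limma adjusted p = 0.0203). Line 1 reached 2.17 times the Syce1 signal of line 2, and the Dppa2 signal of line 1 was the lower of the pair.

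Mei1 had 10.9% and 11.6% in Flag-Dppa2 cells and 0.977% and 1.67% in mock cells. The Flag-Dppa2 lines gave nearly the same value and did not overlap with mock. Its log2 difference was 3.13 (SE 0.28), at least 4.57-fold higher in Flag-Dppa2 cells (limma adjusted p = 0.0363).

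Smc1b had 14.4% and 8.57% in Flag-Dppa2 cells and 4.44% and 3.71% in mock cells. Each Flag-Dppa2 array was above both mock arrays. The groups did not overlap for 4 of the 7 genes, as for 36.8% of all features. The difference was 1.45 on the log2 scale (SE 0.28), 2.74-fold higher in Flag-Dppa2 cells, and did not pass the test (limma adjusted p = 0.151). It was 3.25-fold in line 1 and 2.31-fold in line 2.

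Sycp1 had 1.31% and 0.766% in Flag-Dppa2 cells and 0.748% and 0.478% in mock cells, none of them well above background, so no fold is given (limma adjusted p = 0.474). The genes that had not been called in mock against wild type were not called here either. Syce2 had 1779% and 2796% in Flag-Dppa2 cells, with a log2 difference from mock of 0.09 (limma adjusted p = 0.959). The 1.57-fold excess of line 2 over line 1 in Flag-Dppa2 cells was close to the 1.66-fold excess in mock cells.

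Stag3 had 75.6% and 71.2% in Flag-Dppa2 cells, a log2 difference from mock of 0.25 (limma adjusted p = 0.817). Rec8 gave 336% and 356% with its brighter probe in Flag-Dppa2 cells, a log2 difference of 0.02 from mock (limma adjusted p = 0.968; 95% interval of the ratio 0.844 to 1.22), and 56.6% and 61.6% with the other probe. Tex11 had 0.893% and 0.656% in Flag-Dppa2 cells, not well above background. One Sycp2 probe reached 3.45% on the second Flag-Dppa2 array, where it was well above background, and 0.572% on the first, where it was not. The other 2 Sycp2 probes were below background on both.

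The calls of Syce1 and Mei1 in this comparison were less firm than those against wild type. They rest in part on the small spread of the wild-type pair. With the Flag-Dppa2 and mock arrays alone, 0 of 18763 features were called, and the limma adjusted p was 0.146 for Syce1 and 0.196 for Mei1. With the replicate number, which marks the shared knockout line, as a block, the limma adjusted p was 0.0559 for Syce1 and 0.0819 for Mei1. For this comparison wild type averaged into 1 sample gives the same fit and values as the Flag-Dppa2 and mock arrays alone. It is therefore not a separate check. The call of Syce1 was also lost without either mock array (adjusted p = 0.0695 without replicate 1 and 0.0658 without replicate 2), that of Mei1 was not, and 0 of 7 were called without either Flag-Dppa2 array. With normexp, which adds an offset of 50 intensity units and so compresses dim signals, the log2 difference was 3.04 for Syce1 and 0.79 for Mei1, and neither was called.

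The third comparison asked how far Flag-Dppa2 lines remained from wild type. By limma's test 0 of the 7 genes were called, and 0.629% of all features were called by the same test. An unadjusted p under 0.05 was found for 3 of the 7 genes and for 21.5% of all features. The groups did not overlap for 6 of the 7 genes, as for 60.2% of all features. With quantile normalization, the authors' deposited log2 values, normexp or an intensity trend, 1 of 7 was called, and it was Smc1b in each case. By their averages the genes lay at different shares of the wild-type signal, and differences between genes were not tested.

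Mei1 lay closest to wild type among the 4 genes that had fallen, with 10.9% and 11.6% in Flag-Dppa2 cells and 12.7% and 12.4% in wild-type cells. The Flag-Dppa2 values averaged 89.6% of wild type, a log2 difference of -0.16 (limma adjusted p = 0.777; 95% interval of the ratio 0.536 to 1.498).

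Syce1 reached 50.2% of the wild-type mean in line 1 and 23.1% in line 2. Its log2 difference from wild type was -1.55 (SE 0.44), 2.94-fold lower in Flag-Dppa2 cells, with a limma adjusted p of 0.158 and an unadjusted p of 0.0197.

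Smc1b reached 21.0% of the wild-type mean in line 1 and 12.5% in line 2, against 6.47% and 5.41% in the mock cells of these lines. It was 6.18-fold lower in Flag-Dppa2 than in wild-type cells, a log2 difference of -2.63 (SE 0.28), with a limma adjusted p of 0.0533 and an unadjusted p of 0.000438.

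Sycp1 was at least 1.90-fold lower in Flag-Dppa2 than in wild-type cells, with a log2 difference of -2.47 (SE 0.35, limma adjusted p = 0.0712). In Flag-Dppa2 cells Stag3 averaged 93.3% of wild type (limma adjusted p = 0.872), Rec8 88.9% (adjusted p = 0.393) and Syce2 114% (adjusted p = 0.783).

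**Figure D3:**
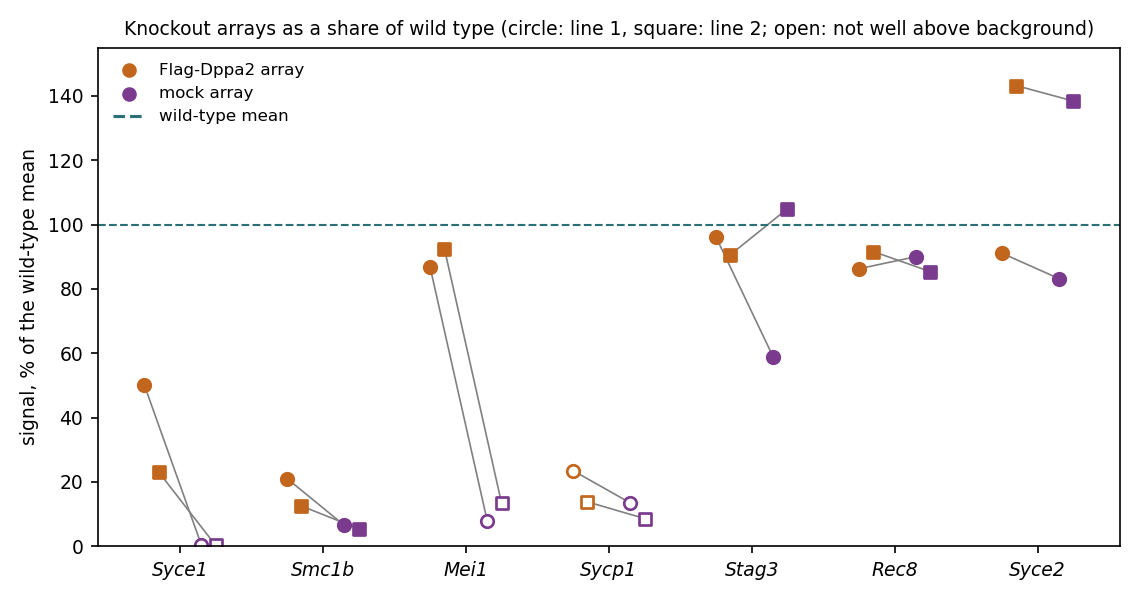
Signal of the 7 tested genes on the Flag-Dppa2 and mock arrays as a percentage of the mean of the wild-type arrays (dashed line), with lines joining the arrays of the same knockout line (open symbols, not well above background). Mei1 lies at 86.8% and 92.5% in Flag-Dppa2 cells, Syce1 at 50.2% and 23.1%, and Smc1b at 21.0% and 12.5%.

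On the Flag-Dppa2 arrays Syce1 and Mei1 were well above background. The 6 two-cell-like markers and the Y-linked Eif2s3y and Ddx3y were not. Whether the two-cell-like state or the sex of the lines has a part in the members' signals was not tested. Of the 15 tested fibroblast and feeder genes, 3 (Mmp2, Fbn1 and Loxl1) rose in Flag-Dppa2 relative to mock cells and 0 fell. Over all features 0.682% were higher and 0.0373% lower. The rest of this list was not called in that comparison. In mock against wild-type cells 4 of the 15 were called lower, these 3 genes and Twist2, and 0 higher. Over all features 3.65% were lower and 2.44% higher in that comparison. Fbn1 and Loxl1 entered the test only through wild-type and Flag-Dppa2 arrays, and Twist2 only through its wild-type arrays, so both counts are descriptions.

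The somatic partners of the meiotic cohesin subunits were measured on the same arrays. Of 17 tested genes of somatic cohesin and its regulators, 0 were called in each of the 3 comparisons by limma, and the median log2 difference from wild type in mock cells was 0.05, as over all features. Smc1a, the counterpart of Smc1b, had 1874% and 2285% in mock cells and 1716% and 1753% in wild-type cells (log2 difference 0.25, limma adjusted p = 0.376). Smc3, which pairs with either of these, had 1472% and 1575% in mock cells and 1652% and 1678% in wild-type cells (log2 difference -0.13, limma adjusted p = 0.456). For Rad21, the somatic kleisin, the log2 difference was 0.05 (limma adjusted p = 0.768), for Stag1 it was 0.26 (adjusted p = 0.327) and for Stag2 0.29 (adjusted p = 0.490).

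Of 17 listed other genes of synapsis and the chromosome axis 8 were tested, and in mock cells 4 were lower and 0 higher than in wild type, where 3.65% of all features were lower. The median log2 difference was -1.14. Fkbp6 entered the test only through its wild-type arrays, so the count is a description. The gene 4930447C04Rik, whose product (SIX6OS1) binds SYCE1 in the central element, had 2.34% and 2.65% in mock cells and 180% and 181% in wild-type cells, 72.4-fold lower in mock (limma adjusted p = 0.00717), and was well above background on 1 of the 2 mock arrays. It had 79.1% and 43.9% in Flag-Dppa2 cells, 23.7-fold above mock (limma adjusted p = 0.0219), so line 1 again lay above line 2.

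Iho1, an axis protein that promotes break formation, was 4.33-fold lower in mock than in wild-type cells (limma adjusted p = 0.00827). It had 17.95% and 20.04% in Flag-Dppa2 cells, 4.30% and 4.80% in mock cells, and 20.04% and 19.34% in wild-type cells, and its rise in Flag-Dppa2 over mock cells was 4.17-fold (limma adjusted p = 0.0182). Hormad1, an axis protein removed at synapsis, was 13.7-fold lower in mock than in wild-type cells (limma adjusted p = 0.0206) and well above background on 1 of the 2 mock arrays. Fkbp6, a chaperone needed for male meiosis in mice, was at least 8.61-fold lower (limma adjusted p = 0.0180). Neither was called in Flag-Dppa2 against mock cells (limma adjusted p = 0.105 for Hormad1 and 0.273 for Fkbp6).

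Of 14 tested recombination genes 2 were lower in mock than in wild-type cells and 0 were higher. Over all features 3.65% were lower and 2.44% higher. Ccnb1ip1, which encodes the crossover factor HEI10, was at least 30.5-fold lower (limma adjusted p = 0.00589), and Rec114, a partner of MEI4 in break formation, was 4.75-fold lower (limma adjusted p = 0.0127). Ccnb1ip1 was the 1 gene of this list that rose in Flag-Dppa2 over mock cells, at least 9.67-fold (limma adjusted p = 0.0175). Over all features 0.682% were higher in that comparison. Ccnb1ip1 entered the test only through wild-type and Flag-Dppa2 arrays, so both counts are descriptions. Against wild type 1 was lower in Flag-Dppa2 cells, Meiob, which binds single-stranded DNA in recombination (2.20-fold, limma adjusted p = 0.0418; 0.103 with the replicate block).

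Of 11 tested genes of meiotic entry and germline regulation, 6 were lower in mock than in wild-type cells and 0 were higher. Over all features 3.65% were lower and 2.44% higher. The 6 lower genes included Mael, a piRNA pathway gene, at least 41.6-fold lower (limma adjusted p = 0.0328). The RNA-binding protein gene Dazl was at least 7.03-fold lower (limma adjusted p = 0.0240). Meioc, which prolongs meiotic prophase in mice, was 7.08-fold lower (limma adjusted p = 0.00882). Taf7l, a germ cell TFIID subunit gene on the X chromosome, was at least 6.10-fold lower (limma adjusted p = 0.00904). It was the 1 gene of the list that rose in Flag-Dppa2 over mock cells, at least 1.78-fold (limma adjusted p = 0.0453). Over all features 0.682% were higher in that comparison. Dazl entered the test only through its wild-type arrays, and Mael and Taf7l through wild-type and Flag-Dppa2 arrays, so both counts are descriptions.

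Repressors of germline genes include DNA methyltransferases and the non-canonical PRC1.6 complex. Of 22 tested genes for such repressors, 1 was lower in mock than in wild-type cells and 0 were higher. Over all features 3.65% were lower and 2.44% higher. The 1 lower gene was Dnmt3b, a de novo DNA methyltransferase (1.65-fold lower, limma adjusted p = 0.0358). In either of the other comparisons 0 of the 22 were called. With the replicate block the limma adjusted p in mock against wild type was 0.0647 for Dnmt3b and 0.0550 for Dazl. For 4930447C04Rik, Iho1, Ccnb1ip1, Taf7l, Mmp2, Fbn1 and Loxl1, which rose in Flag-Dppa2 over mock cells, it ran from 0.0559 to 0.109, so none of these 7 calls held with the block.

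**Figure D4:**
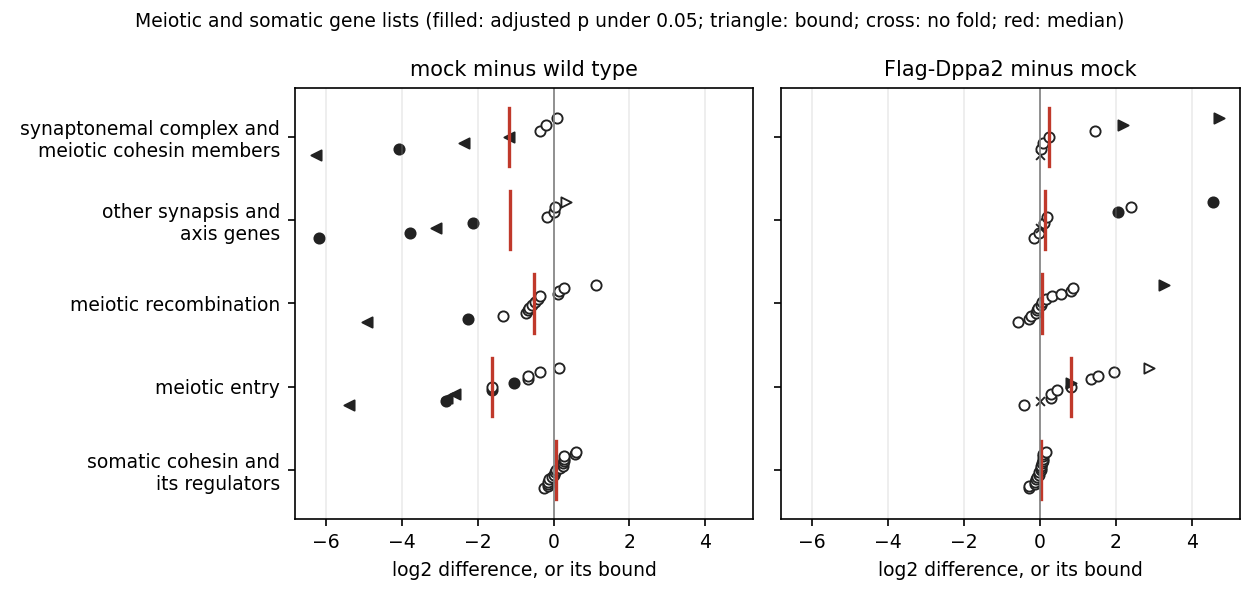
Log2 differences of single genes in 5 lists, for mock minus wild type and Flag-Dppa2 minus mock (filled symbols, limma adjusted p under 0.05; triangles, genes below background in one group, at their bound; crosses, genes below background in both groups, at 0; red bars, median of the values drawn). The medians in mock minus wild type are -1.18 for the 7 synaptonemal complex and meiotic cohesin genes and 0.05 for the 17 genes of somatic cohesin and its regulators.

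For each gene that fell in mock cells, the most similar patterns over the 6 arrays were sought among 13296 other genes, by the root mean square difference of the log2 levels after the wild-type mean of each gene was subtracted. Closest to Syce1 were Psma8, the germ cell proteasome subunit gene (0.75), Car4, a carbonic anhydrase gene (0.77), and Gsdme (0.90). On the Flag-Dppa2 arrays Psma8 lay -0.39 and -0.64 from its wild-type mean on the log2 scale, and Car4 -0.84 and -2.78. Syce1 lay -0.99 and -2.11 from its own, so Car4 was the nearer there. Closest to Smc1b was Gpat2 (0.15), an acyltransferase gene expressed in male germ cells. Hus1b (0.27), a paralogue of the checkpoint clamp gene Hus1, and Sp110 (0.39) followed. Closest to Mei1 were Hfe (0.21), an iron regulator gene, Il23a (0.21), a cytokine subunit gene, and Acer2 (0.22). Closest to Sycp1 were Gbp7 (0.10), Bfsp1 (0.14) and Gpm6a (0.15). Gpat2 was above background on all 6 arrays, as Smc1b was. Psma8, Car4, Gsdme, Hfe, Il23a and Acer2 were above it on 4 of 6 arrays and Sp110 on 3 of 6. Hus1b, Gbp7, Bfsp1 and Gpm6a were above it on 2 of 6. Signals below background have no order, so the likeness in those arrays carries no rank.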

How the data were processed

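The members and gene lists were chosen with earlier results of these data known. The intensity values come from Agilent Feature Extraction 10.7.3.1 (protocol GE1_107_Sep09), per the file headers, are on a linear scale and had background subtracted by that software. The log2 values deposited by the authors were made with GeneSpring GX 11, per the labels. Their column medians were all 5.84, they follow the scanner's log2 scale without centring per gene, and they were used for 1 alternative.

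Control spots (1639 of 45018) and outlier spots were left out, the remaining spots were averaged per probe, and 115 of 41174 probes had none. Log2 of each array's 75th percentile was subtracted. Features were probes marked well above background on 2 or more of 6 arrays, the brightest for each of 13297 symbols plus 5466 probes without a symbol, 18763 in all. The 3 groups were fitted together with limma 3.58.1 in R 4.3.3 with calls at 0.05 after Benjamini-Hochberg adjustment, two-sided. The scripts were tested on simulated data. Where a group lay below background, the fold is a bound against the lowest level well above background on each of its arrays. A normexp alternative used median signals (offset 50), since the mean signal was not in the columns used here.

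The mock and Flag-Dppa2 arrays of a number share a knockout line per the labels. Deviations from group means correlated at 0.58 between them, at -0.02 between mock and wild-type arrays and at 0.01 between Flag-Dppa2 and wild-type arrays, over 24828 probes. The planned fit has no replicate block. Genes named outside the members follow a rule of at most 5 called genes per list. Scanner files name build mm9, and promoter windows are from RefSeq GRCm38.p6.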

Additional observations from a re-analysis of the deposited data

Results flagged for a closer look

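In line 1 and line 2 some differences pointed opposite ways, and none of these contrasts between lines was tested. Syce2 in mock minus wild type was -0.34 on the log2 scale in line 1 and 0.55 in line 2, and in Flag-Dppa2 minus wild type it was -0.21 in line 1 and 0.60 in line 2. Stag3 was -0.74 in line 1 and 0.046 in line 2 for mock minus wild type, and 0.71 in line 1 and -0.21 in line 2 for Flag-Dppa2 minus mock. Rec8 was -0.062 in line 1 and 0.10 in line 2 for Flag-Dppa2 minus mock. No group of 2 arrays allows a test for a single array that stands apart.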

How the results depend on the processing

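The count of 4 genes lower in mock than in wild-type cells stayed at 4 with quantile normalization, median centring, normexp, the authors' deposited values, no filter on dim probes, every probe tested, an intensity trend, the arrays of both groups alone and the replicate block. It was 0 with wild type averaged and 1 when only probes above background on all arrays were tested. Without 1 replicate it ranged from 0 to 4, at 0 without either wild-type array. The count of 2 genes higher in Flag-Dppa2 than in mock cells was 1 with quantile normalization, median centring, the authors' deposited values or no filter, and 0 with normexp, probes above background on all arrays, wild type averaged, the arrays of both groups alone, the replicate block, or, added after seeing the data, the knockout arrays alone with that block. Without 1 replicate it ranged from 0 to 1. The count of 0 in Flag-Dppa2 against wild type was 1 with quantile normalization, normexp, the authors' deposited values or an intensity trend, and 0 without any 1 replicate. When only probes above background on all arrays were tested, 4 members remained: Syce2, Smc1b, Stag3 and Rec8. Syce1, Mei1 and Sycp1 were left out, since they were not well above background in mock cells. Their calls could not be made in that setting, so its counts of 1 and 0 do not show that these calls were lost. Over all features, the replicate block gave 498 calls in mock against wild type against 1143 without it, and 5 against 135 in Flag-Dppa2 against mock. In Flag-Dppa2 against wild type it gave 0 against 118. Median centring moved the median of all features to 0.28 in mock minus wild type, -0.12 in Flag-Dppa2 minus mock and 0.14 in Flag-Dppa2 minus wild type, with 2369 calls (666 lower, 1703 higher) in the first against 685 lower and 458 higher. Calls in mock against wild type were 1757 with an intensity trend, 388 without a filter, 0 with wild type averaged and 0 to 888 without 1 array. In Flag-Dppa2 against mock they were 51 with normexp, 50 without a filter, 38 for probes above background on all arrays, 0 with wild type averaged, the arrays of both groups alone or the knockout arrays with the block, and 0 to 111 without 1 array. In Flag-Dppa2 against wild type they were 222 with quantile normalization (131 lower and 91 higher, against 82 lower and 36 higher), 223 with the authors' deposited values, 374 with normexp, 325 with an intensity trend, 6 without a filter, 12 for probes above background on all arrays, 5 with the arrays of both groups alone, 0 with wild type averaged and 0 to 5 without 1 array. Of 355 single-gene values, 298 kept direction and call, 38 lost the call, 4 gained it and 15 changed direction, all 15 in Syce2, Stag3 and Rec8, which were never called; the cause was not tested. In mock minus wild type Syce2 was -0.0082 with quantile normalization and -0.0090 with the authors' deposited values, and Rec8 was 0.0365 with median centring. In Flag-Dppa2 minus mock Syce2 was -0.0275 and Rec8 -0.0975 with median centring, and Rec8 was -0.0189 with normexp. In Flag-Dppa2 minus wild type Stag3 was 0.0092 with median centring. Leaving out 1 replicate gave ranges that crossed 0: -0.2770 to 0.4577 for Syce2 in Flag-Dppa2 minus mock, -0.7640 to 0.0693 for Stag3 in mock minus wild type, -0.1686 to 0.6646 for Stag3 in Flag-Dppa2 minus mock, -0.2655 to 0.4692 for Syce2 in mock minus wild type, -0.0232 to 0.0638 for Rec8 in Flag-Dppa2 minus mock and -0.1340 to 0.5184 for Syce2 in Flag-Dppa2 minus wild type. The slide could not be fitted as a block, since Flag-Dppa2 arrays fill a slide of their own. Dim signals limit Sycp1, Syce1 and Mei1 in mock cells, Sycp2 and Tex11.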
